A study of Caenorhabditis elegans with 4 samples.

Results

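The right arm of Caenorhabditis elegans chromosome V carried 1159 LIN-61 peaks, of 13662 in the authors' combined list. A peak was counted when its centre lay beyond base 13949433 on genome build WS220, which is the last 33.3% of the chromosome. The arm runs for 6.97 Mb to base 20924149, the last base of any peak on V. The same rule placed 1008 of 11744 peaks of ChIP replicate 1 and 830 of 9436 peaks of ChIP replicate 2 in the arm. The first member inside the limit was a 146 bp peak at V:13954836-13954981 with a score of 2.11, and the last peak outside was one of 1367 bp at V:13907789-13909155 with a score of 17.08.

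The peaks come from chromatin immunoprecipitation and sequencing (ChIP-seq) of L3 larvae of the wild-type laboratory strain N2, grown at 20 degrees Celsius as a mixed population of males and hermaphrodites. The series has 2 libraries made with a rabbit antibody against LIN-61, polyclonal and affinity-purified, and 2 libraries of input DNA, and no treatment or mutant group. Whole animals were used, so each peak is a sum over all larval tissues and both sexes. The labels do not say that the replicates were separate cultures, and the spread between them may be technical.

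LIN-61 is a nuclear protein built of MBT repeats, folds that bind methylated histone tails. It recognises the heterochromatin mark of lysine 9 methylation on histone H3, and acts in the synMuv B pathway, which keeps vulval fates from being adopted in the wrong cells. In C. elegans this mark is found mainly on the outer parts of the autosomes, where repeats and fast-evolving gene families are common. Chromosome V is known for its many chemoreceptor genes, and its right end holds the meiotic pairing centre, a region bound by the zinc-finger protein ZIM-2. No annotation or genome of build WS220 was used here, so regions are given by coordinate and no gene or sequence is assigned to them.

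The arm held more peaks per Mb than the rest of its chromosome. The combined list had 166 peaks per Mb here, replicate 1 had 145 and replicate 2 had 119. The replicates averaged 132 ± 18.0 (SD, n = 2). The left arm of V, of equal length, had a combined density of 112.3 per Mb, with 89.9 for replicate 1 and 71.0 for replicate 2. The centre had 56.6, 43.9 and 36.6. In both replicates the right arm was thus the densest part of V and the centre the sparsest, and the right arm held 51.9% of the V peaks of replicate 1 and 52.5% of those of replicate 2. The ratio of right to left was 1.64 ± 0.0489 (SD, n = 2) over the replicates, and that of right to centre was 3.27 ± 0.0277. These ratios were not tested; an exact two-sided sign-flip permutation over 2 libraries cannot give a p below 0.50.

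Among the 10 autosome arms, the right arm of V had a comparatively low density of peaks and a comparatively high median score. Its density ranked 7 from the highest in the combined list and 8 in each replicate. The score is a value assigned to every peak by the authors' caller. Its median over the arm was 9.83 for the combined list, 9.37 for replicate 1 and 9.23 for replicate 2. This median ranked 3 of 10 in each list, tied with the left arm of IV in the combined list. The ranks among arms were not tested. In the combined list the other 9 arms had medians between 7.45 on the right arm of IV and 12.75 on the left arm of III. The score was used mainly to rank peaks and compare medians within a list, since the quantity behind it is not named. Where scores of the same site are set side by side between lists, they may not share a scale. Median peak width was 335 bp in the combined list, close to the 332 bp over all 13662 peaks.

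Peak density was higher toward the chromosome end. The arm was divided into 3 sections of 2.32 Mb. In the combined list the inner section had 77.0 peaks per Mb, the middle section 151 and the outer section 270.5. The order was the same in replicate 1, with 58.1, 138.5 and 237, and in replicate 2, with 53.8, 99.4 and 204. The ratio of outer to inner density was 3.94 ± 0.205 (SD, n = 2) over the replicates. It was the highest of the 10 autosome arms in the combined list (3.51, others 1.08 to 2.94) and in replicate 1 (4.08, others 1.11 to 3.26). In replicate 2 it was 3.79, behind the left arm of chromosome I with 4.39. The left arm of V had a ratio of 1.95 in replicate 1 and 1.75 in replicate 2. The outer density of the right arm was not itself the highest. In the combined list the outer sections of the other arms ran from 120 per Mb on the right arm of IV to 407 on the left arm of I. Their inner sections ran from 68.8 on the left arm of V to 229 on the left arm of III, so the inner 77.0 was near the low end.

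**Figure D1:**
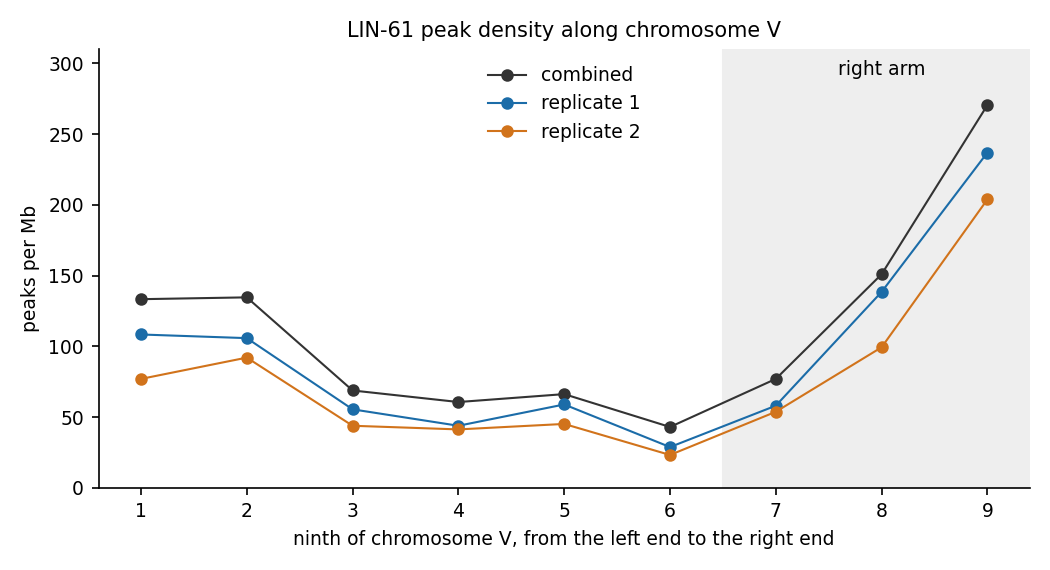
Peaks per Mb in the 9 equal parts of chromosome V, from the left end to the right end, for the combined list and each replicate list; the right arm is shaded. In every list each right-arm part has more than the one before it, from 77.0 to 270.5 in the combined list, while the left arm reaches 135 at most.

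Peak scores were ordered in the same way. The median score of the combined peaks was 8.14 in the inner section, 8.61 in the middle and 11.99 in the outer section. The replicates had the same order, with 7.41, 7.995 and 12.09 in replicate 1 and 6.81, 9.23 and 10.32 in replicate 2. Of the 289 members with the highest scores, which form the top of 4 equal groups, 198 lay in the outer section, 69 in the middle and 22 in the inner. They made up 31.5% of the outer members and 12.3% of the inner ones. Peaks covered 4.31% of the inner section, 7.81% of the middle and 16.5% of the outer section.

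The gradient was not even, and it stopped short of the end. By whole megabases, the combined list had 87 peaks at 14 to 15 Mb, 82 at 15 to 16 Mb and 79 at 16 to 17 Mb. It then had 173 at 17 to 18 Mb, 248 at 18 to 19 Mb and 309 at 19 to 20 Mb. Over these same 6 megabases replicate 1 had 67, 63, 54, 164, 225 and 282 peaks, and replicate 2 had 68, 50, 57, 106, 180 and 243. The counts of all 3 lists were thus lowest up to 17 Mb, and each megabase from there to 20 Mb held more than the one before it. The last 500 kb held 62 peaks, or 124 per Mb, with 90 per Mb in replicate 1 and 72 in replicate 2, lower than in the outer section as a whole. In the last 100 kb there were 9 combined peaks, none scoring above 20.39. The final combined peak ended 21886 bp before the last base of V, while replicate 1 had a peak of 241 bp at V:20923909-20924149 that reached that base and had no partner in either other list.

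Binding was gathered into windows that both replicates shared. Over the 69 full windows of 100 kb in the arm, the number of combined peaks ran from 1 to 60, with a median of 12. The 10 fullest windows held 39.0% of the combined peaks, and for replicates 1 and 2 the figures were 40.4% and 42.7%. Of the 10 windows with the greatest covered length in each replicate, 8 were the same. The number of peaks per window was correlated between the replicates (Spearman's rho 0.93, Pearson's r 0.95), a description over 69 windows of the same genome that share mappability and base composition. Replicate 1 had more peaks in 41 of the windows, replicate 2 in 17, and 11 were equal.

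**Figure D2:**
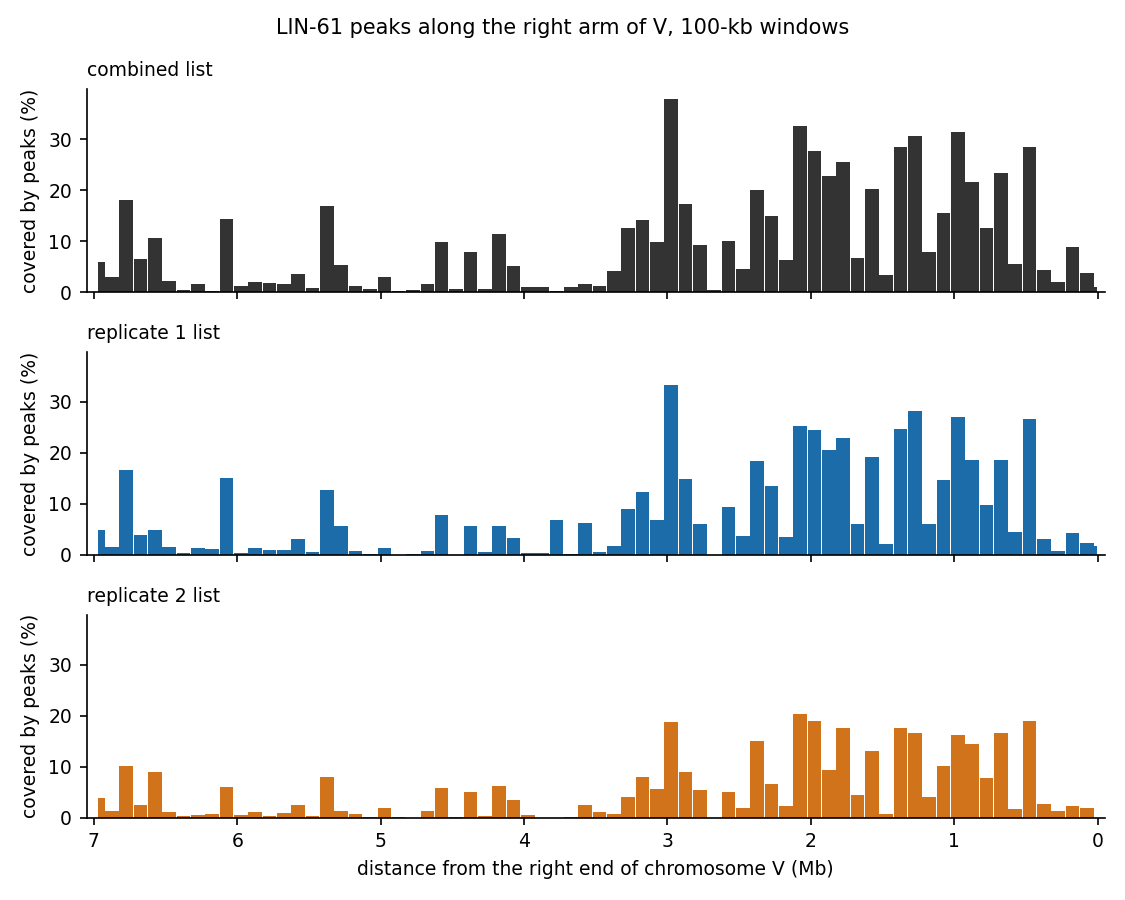
Percent of each 100-kb window covered by peaks, against the distance from the right end of chromosome V, in the combined list and in each replicate. The highest bar of the combined list, 37.9%, stands about 3 Mb from the end, and the windows beyond it toward the end are mostly higher than those before it in all 3 panels.

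In the combined list the window with the most covered sequence was V:17900001-18000000, where combined peaks covered 37.9%, replicate 1 peaks 33.3% and replicate 2 peaks 18.7%. It was followed by V:18800001-18900000 with 32.6%, 25.3% and 20.4%, and by V:19900001-20000000 with 31.5%, 27.0% and 16.3%. In replicate 1 these windows ranked 1, 5 and 3, and in replicate 2 they ranked 4, 1 and 9. The first of these windows lies in the middle section, ahead of the densest stretch. At the other extreme, the longest stretch with no combined peak was the 104 kb of V:15191168-15294846, followed by 103 kb at V:15771287-15873848 and 93.6 kb at V:16132156-16225715. Neither replicate had a peak centred in any of them. All 3 empty stretches were in the inner section.

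Neighbouring peaks lay closer together than elsewhere on V. The median gap between one combined peak and the next was 943.5 bp in the right arm, 1246.5 bp in the left arm of V and 2820 bp in its centre. Gaps of 1 kb or less made up 51.3% of those in the right arm, 46.9% in the left arm and 37.3% in the centre. The median of the other 9 autosome arms was 52.9%, and the right arm of V ranked 7 of 10 by combined peaks, but 5 by those of replicate 1 and 4 by those of replicate 2. When peaks no more than 5 kb apart were chained, the arm fell into 252 tracts. Of these, 29 tracts of 10 or more peaks contained 52.9% of the members, and 119 peaks stood alone. Replicate 1 had 54.9% of its arm peaks in such long tracts and replicate 2 had 42.3%, against 29.3% and 32.1% in the left arm and 8.82% and 9.80% in the centre. A denser list chains more readily, so these shares are not independent of the density.

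The longest tract of the combined list, at V:19520984-19645881, held 77 peaks over 125 kb and was 38.8% covered. Replicate 1 had 72 peaks in the same span and covered 35.7% of it, and replicate 2 had 69 and covered 23.4%. Neither replicate chained the span into 1 tract. Replicate 1 had separate tracts there, of 32 peaks at V:19538006-19587443 and 34 at V:19592541-19645888. Replicate 2 had a tract of 22 peaks at V:19592591-19614368, and no tract of its arm peaks held more than 30. A shorter combined tract at V:19880988-19957472 had 44 peaks over 76.5 kb and was the most covered of the 5 combined tracts richest in peaks, at 56.0%. The tract at V:17926791-17995677, with 45 peaks over 68.9 kb and 45.8% covered, held 31535 of the 37926 bp covered in the fullest window.

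The 10 strongest sites of the combined list lay in the outer 3 Mb of the arm. The 10 best-scoring members supported by both replicates began between 17928677 and 20422239. The first of them, V:20422239-20424844, was 2606 bp wide with a score of 146.65, ranked 7 among all 13662 peaks, and lay 0.50 Mb from the chromosome end. It was a single peak in each replicate, ranked 2 in the arm in replicate 1 (score 185.39) and 1 in replicate 2 (score 113.42). The site thus stood at or next to the top of the arm in every list.

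The second site, V:17928677-17932294, scored 132.68 and was split into 3 peaks in replicate 1 and 4 in replicate 2. The third, V:19187917-19189283, was a compact peak of 1367 bp with a score of 129.91, and was single in both replicates. The fourth, V:19914763-19919443, was 4681 bp wide with a score of 128.99. The other 6 had scores from 112.58 to 123.47 and widths from 970 to 3621 bp. They were V:19122211-19125831, V:20100935-20103373, V:20005814-20006783, V:19609304-19612081, V:17947870-17949814 and V:18572750-18574056. Across these 10 sites the best peak took ranks from 2 to 29 among the replicate 1 arm peaks and from 1 to 16 among those of replicate 2.

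The replicates did not rank every strong peak alike. The highest score of replicate 1 in the arm was 208.24, at V:19933035-19934751. The same site scored 95.28 in the combined list, where it ranked 19, and 89.19 in replicate 2, where it ranked 6. The peak ranked 4 in replicate 1, V:15320686-15322755, scored 148.74 there. It ranked 263 in the combined list with 28.59 and 145 in replicate 2 with 22.72, although all 3 lists drew it with nearly the same limits. A strong peak of the inner section, V:14038434-14038955, held similar ranks, 3 in replicate 1 with a score of 163.14 and 7 in replicate 2 with 88.72. These peaks were chosen after their values were seen.

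Over the 604 pairs of overlapping arm peaks, each used once, scores were correlated between the replicates (Spearman's rho 0.73, Pearson's r 0.83). The pairs come from the same 2 libraries and are not independent, so this describes the ranking of sites only. The centres of paired peaks were 46 bp apart at the median (quartiles 18.5 and 121 bp). The replicate 1 peak was the wider in 453 pairs, with a median of 494 bp against 342 bp in replicate 2.

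**Figure D3:**
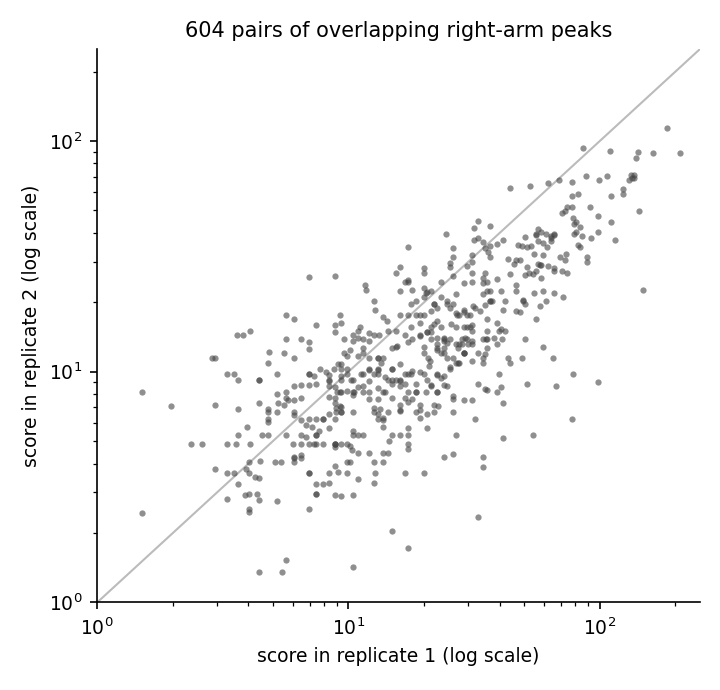
Score in replicate 1 against score in replicate 2 for the 604 pairs of overlapping right-arm peaks, both on log scales; the line marks equal scores. Scores rise together with a wide scatter (Spearman's rho 0.73). The pairs with the highest replicate 1 scores lie below the line, such as 208.24 against 89.19 and 185.39 against 113.42. Among these, the point farthest below the line is the site scoring 148.74 in replicate 1 and 22.72 in replicate 2.

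Wide combined peaks had lower scores in the inner arm than in the outer arm. Peaks of 2 kb or more numbered 41, or 3.54% of the members, against 4.57% of all combined peaks. The outer section had 22 of them, with a median score of 78.97, the middle section 7, with 46.41, and the inner section 12, with 24.86. Wide peaks made up 37.8% of the covered sequence of the inner section and 19.4% of that of the outer in the combined list, and 41.3% and 19.3% in replicate 1. In replicate 2, with 3 wide inner peaks, the shares were 14.5% and 13.2%.

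The widest member was a domain of 12733 bp at V:20407917-20420649 with a score of 78.23. It ended 1589 bp before the strongest peak of the arm, with 3 small peaks between that scored no more than 4.99. Replicate 1 drew it as 2 peaks, the longer of 12424 bp, and replicate 2 as 6, the longest of 5218 bp. The next was 7613 bp at V:14838205-14845817 in the inner section, a single peak of 7591 bp in replicate 1. Replicate 2 had 7 short peaks there that covered 47.5% of it and scored at most 8.70. The others of the 5 widest were V:20094376-20100246 of 5871 bp, V:16352685-16358136 of 5452 bp and the fourth of the strongest sites. Of the 41 wide members, 21 were split into 2 or more peaks in replicate 1 and 29 in replicate 2. Only V:18660880-18663649, 2770 bp wide with a score of 10.81, had no peak in replicate 2.

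Replicate support was read by counting a combined peak as supported when a replicate peak overlapped it by at least 1 bp. Both replicates supported 571 of the 1159 members (49.3%, 95% Wilson interval 46.4 to 52.1), beside 45.3% of all combined peaks. Replicate 1 alone supported 284 (24.5%, beside 26.5% of all), replicate 2 alone 76 (6.56%, beside 7.86%), and neither 228 (19.7%, beside 20.3%). In the left arm of V both replicates supported 41.3% (37.9 to 44.7), and in the centre 37.7% (33.1 to 42.6). Intervals here cover counting error only. How the combined list was made is not stated, so it may rest on the same reads as the replicate lists.

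The share differed by score. Of the members at or above 8.58, the median score of the whole list, 83.4% had both replicates, and in the list as a whole 82.8% did. Of those below it, 5.88% did, against 7.77% in the whole list. The right arm had 56.0% of its members in the stronger part, the left arm 46.2% and the centre 41.0%. The arm's 95% Wilson intervals were 80.3 to 86.0 at or above the median score and 4.15 to 8.27 below it. They cover counting error only, and the whole list includes the arm. Why support was higher in the right arm was not tested. Of the 4 equal groups of members by score, both replicates supported 3 of 290 in the weakest, 15.9% and 80.3% of the next ones, and all 289 of the strongest (95% Wilson interval 98.7 to 100).

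**Figure D4:**
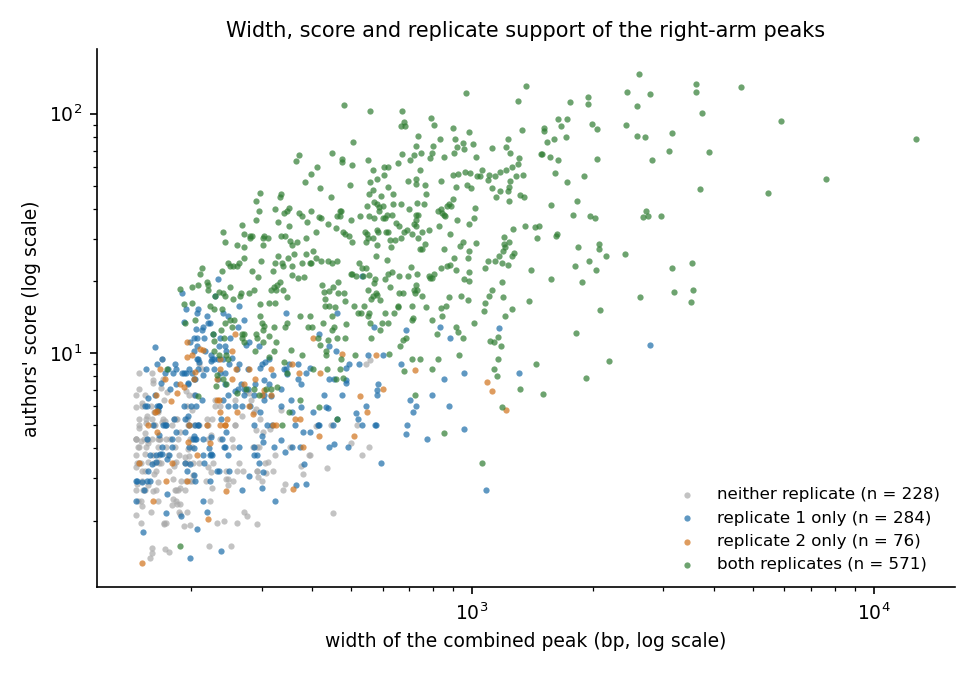
Width against the authors' score for the 1159 combined peaks of the right arm, both on log scales, coloured by which replicates overlap them. Peaks with both replicates fill the wide and strong side (medians 627 bp and 25.49), and those with neither the narrow and weak side (medians 186.5 bp and 3.79).

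The 571 members with both replicates had a median width of 627 bp and a median score of 25.49, and made up 75.4% of the covered sequence. The 228 with neither had medians of 186.5 bp and 3.79, and made up 7.42%. The strongest member with neither replicate scored 9.41, at V:19056956-19057125. It was followed by V:15177695-15178253 (9.32), V:17409512-17410056 (9.0), V:20451421-20451630 (9.0) and V:20497620-20497832 (8.61). Both replicates supported 39.7% of inner members (95% Wilson interval 32.8 to 47.0), 43.9% of middle ones (38.8 to 49.1) and 55.0% of outer ones (51.1 to 58.9). Direct overlap of the replicate lists did not give this order throughout. Of replicate 1 peaks, 57.8% of inner, 54.3% of middle and 67.2% of outer ones had a replicate 2 partner. For replicate 2 peaks with a replicate 1 partner the shares were 78.4%, 87.4% and 91.4%.

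Compared directly, 623 of the 1008 replicate 1 peaks (61.8%, 95% Wilson interval 58.8 to 64.8) overlapped a replicate 2 peak, beside 59.1% of all nuclear peaks of that list. Of the 830 replicate 2 peaks, 733 (88.3%, 85.9 to 90.3) overlapped a replicate 1 peak, beside 85.0%. The strongest replicate 1 peaks with no partner were V:19154489-19154750 with a score of 24.62, V:19498107-19498672 (23.24), V:19364509-19366477 (20.27), V:17384321-17385264 (19.40) and V:19618344-19618765 (18.60). In replicate 2 they were V:14277493-14277721 with a score of 13.95, then V:17883109-17883483 (10.88), V:14368328-14369399 (10.63), V:20666223-20667372 (10.32) and V:17421441-17421743 (10.31). The first of these ranked 262 of 830 in the arm, and the first of replicate 1 ranked 233 of 1008.

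A further group of replicate peaks had no counterpart in the combined list. Such peaks numbered 80 in replicate 1 (7.94% of its arm peaks) and 14 in replicate 2 (1.69%). Over the genome, 92.6% of replicate 1 and 98.3% of replicate 2 nuclear peaks overlapped a combined peak. In replicate 1, 26 of the 80 formed 3 runs of 4 or more peaks with no more than 5 kb between them, all in the 279 kb from 17115588 to 17394369. The whole genome had 28 such runs in replicate 1 and 2 in replicate 2. The 28 runs held 170 of the 872 replicate 1 peaks with no combined peak. The arm held 8.58% of all nuclear replicate 1 peaks. The runs were chosen for description after they were seen.

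The longest run had 15 replicate 1 peaks over 16396 bp at V:17115588-17131983, covering 41.9% of it, with scores from 2.00 to 11.11. Replicate 2 and the combined list had no peak there. Part of these peaks recurred at a nearly constant distance. From V:17120574 to 17125923, 6 consecutive peaks of 531 to 611 bp had centres 961 ± 61.1 bp apart (mean and SD of 5 distances, 889.5 to 1045.5 bp). These 6 were picked for their spacing. Over the whole run the 14 distances went from 526 to 2773 bp, with a median of 977 bp, and 7 lay between 850 and 1100 bp. Other chromosomes also had long replicate 1 runs with no peak in either other list. The run at I:10204289-10219200 had 15 peaks and a median distance of 1058.5 bp, with 3 of 14 distances in that range. The run at II:9808048-9823123 had 14 peaks and a median of 985.5 bp, with 2 of 13. As background, the 5S ribosomal RNA genes of C. elegans form a tandem array with SL1 spliced leader genes on chromosome V. Whether the run at V:17115588-17131983 lies on it was not tested.

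The other runs of the arm differed from the longest. At V:17308733-17311504, 4 replicate 1 peaks covered 86.8% of 2772 bp with scores up to 10.33. Here replicate 2 also had 4 peaks, scoring 1.35 to 4.84, and the combined list again had none. At V:17384321-17394369 there were 7 replicate 1 peaks, among them the one scoring 19.40 named above, and no peak in either other list. Without the 26 peaks of these runs, 63.0% of replicate 1 arm peaks had a replicate 2 partner in place of 61.8%.

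**Figure D5:**
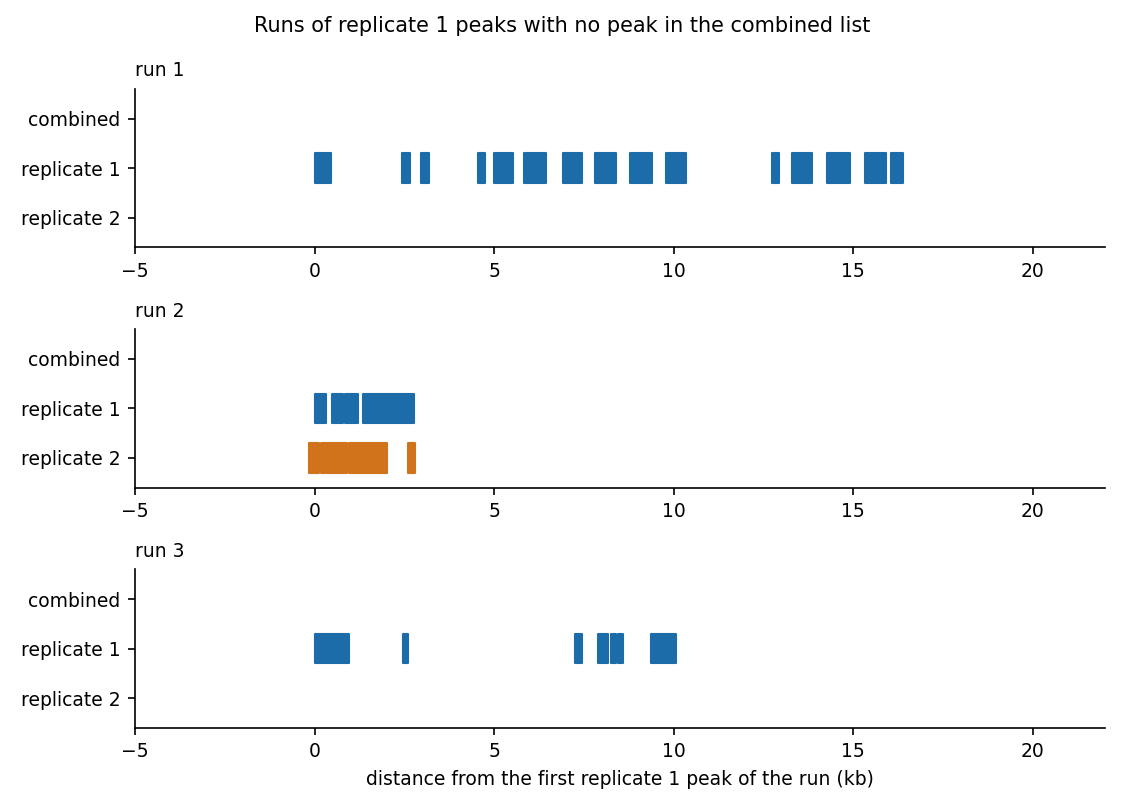
Positions of peaks in the combined list and both replicates across the 3 runs, as distance in kb from the first replicate 1 peak of each run. Run 1, with 15 peaks, and run 3, with 7, appear in replicate 1 alone, and run 2 in both replicates; the combined row is empty in all 3.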

How the data were processed

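The deposited data are peak lists on genome build WormBase WS220, called with MACS per the file headers, 1 for each of the 2 LIN-61 ChIP libraries and 1 combined list for the series. The sources used here do not give the MACS version and threshold, the control, the aligner or how the combined list was made. The score the authors deposited for each peak is a number whose quantity is not named. The lists carry no read counts; depth is unknown, and shallower sequencing could by itself shorten a list. Peaks were placed by their centre, with coordinates counted from 1 and each chromosome taken to end where its last peak in any list ended; 2 mitochondrial peaks of replicate 1 were set aside. Peaks of the input libraries were not analysed here. Arm sections, gaps, tracts, overlaps and 95% Wilson intervals were computed with Python 3.11.15, numpy 2.4.6, pandas 2.3.3 and scipy 1.17.1, and figures drawn with matplotlib 3.10.9. Regions were named by rule: the 10 strongest members with both replicates, the 5 widest, the 5 strongest with neither, the 5 strongest of each replicate with no partner, the 3 most covered windows, the 3 longest empty stretches and the peaks beside the limit. The members and rules were chosen with earlier results of these data known. The overlap procedure was tested on simulated peaks.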

Additional observations from a re-analysis of the deposited data

How the results depend on the processing

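The density of 166 peaks per Mb became 81.0 with gaps of 1 kb or less merged, 93.1 for peaks at or above the list's median score and 192 in the outer 25% of V, and was 119 to 145 in the lists of single replicates; as covered length it was 9.55%. The right to left ratio of 1.48 became 1.61 by covered length, 1.36 with peaks merged and 1.79 for the stronger peaks, and was 1.61 to 1.68 in single replicates. The right to centre ratio of 2.93 became 3.18, 2.28 and 4.01 in that order, 3.05 with outer parts of 25%, and 3.25 to 3.29 in single replicates. Every alternative run left both ratios above 1. The share of members with both replicates, 49.3%, became 40.0% where 50% of the member had to be covered. For the stronger members it was 83.4%, beside 82.8% of the stronger peaks of the whole list. Under 50% reciprocal overlap, the share with a partner was 45.1% for replicate 1 and 54.8% for replicate 2, in place of 61.8% and 88.3%, and for the stronger peaks 85.1% and 97.8%. A stricter overlap lowers a share by construction, and for the other shifts the cause was not tested. Apart from the stronger members, no whole-list share under the same setting is given for these overlaps. They do not show whether the arm's excess over the whole list remained. The median width was 300 to 341 bp and the median score 9.23 to 9.37 in single replicates, and the score was 10.2 in the outer 25%. The alternative without the 3 runs was chosen after seeing the data. Most of the 26 peaks it left out had no replicate 2 partner, as supported peaks went only from 623 to 619. No paired analysis was possible because no peak list was analysed here for the inputs, the other samples numbered 1 and 2.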
